A study of Mus musculus with 6 samples.

Results

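Cardiac macrophage markers are described here as 8 genes, chosen by symbol and found by their Ensembl identifiers: Cd68, Adgre1, Csf1r, Cd163, Mrc1, Lyve1, Timd4 and Lgals3. All 8 were among the 55401 genes of the complete files. RNA sequencing had been run on poly(A) RNA from the myocardium of male wild-type (WT) mice injected with STZ (streptozotocin, a toxin of pancreatic beta cells used to make mice diabetic) or, as controls, with PBS (phosphate-buffered saline). Each group had 3 libraries, and the labelled time was 8 weeks throughout. The labels give neither the age or strain of the mice nor the event from which the time runs. Nothing in them states whether each library is a different mouse. The p-values are therefore read against library-to-library spread alone, which can be technical.

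Macrophages of the healthy heart are largely resident cells that take up debris and dying cells and that depend on signalling through the colony-stimulating factor receptor. A subset marked by Lyve1, Timd4 and the scavenger receptors Cd163 and Mrc1 renews itself locally, while cells that express Ccr2 are replenished from blood monocytes. Galectin-3, the product of Lgals3, is a carbohydrate-binding lectin that macrophages make in quantity when they are activated or loaded with debris, and that other cell types also make.

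Values were FPKM (fragments scaled to transcript length and to the mapped fragments of the library), so levels can be compared between genes per length. The 5 complete libraries summed to between 531384 and 589719 FPKM, and the file of PBS replicate 3 listed 7711 genes (13.9%). It held 5 of the 8 members and lacked Lyve1, Timd4 and Lgals3. The test over all genes therefore used STZ replicates 1 to 3 and PBS replicates 1 and 2, and the third PBS library is set beside them. The number of fragments is not given in the sources used here, so the depth behind each value is unknown. The tissue label was checked with cardiac genes: Myh6 lay between 2219 and 2546 FPKM in STZ libraries and at 2925 and 3083 FPKM in PBS libraries. Since the samples are bulk tissue, fewer macrophages and less RNA per macrophage cannot be told apart.

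The 8 markers did not move together. Lgals3 rose in STZ hearts, Adgre1 (F4/80) had 0.515 of its PBS mean without passing the threshold, Cd163 was somewhat higher, Csf1r and Mrc1 were somewhat lower, and Cd68, Lyve1 and Timd4 overlapped between groups. The summed FPKM of the 8 genes were 34.36, 41.19 and 31.96 in STZ replicates 1 to 3, against 36.73 and 30.77 in PBS replicates 1 and 2, so the sums overlapped. Of 7 members tested with limma on log2(FPKM + 1), 1 passed an adjusted p of 0.05, a rise, and 0 fell. Over all 11556 genes tested, 5.82% passed, 3.64% upward and 2.17% downward. At an unadjusted p under 0.05, 1 member was higher and 2 were lower, where 26.6% of all genes tested passed (16.4% higher and 10.2% lower). The unadjusted counts of the lists below are to be read against these shares. The median log2 fold change was 0.15 over the 7 members and 0.06 over all genes tested. Groups did not overlap for 5 of the 7, where 47.4% of all tested genes had groups apart. Of the 5 members with a value in all 6 libraries, 2 had groups apart, a share near the 41.9% of the 4811 tested genes listed in all 6.

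**Figure D1:**
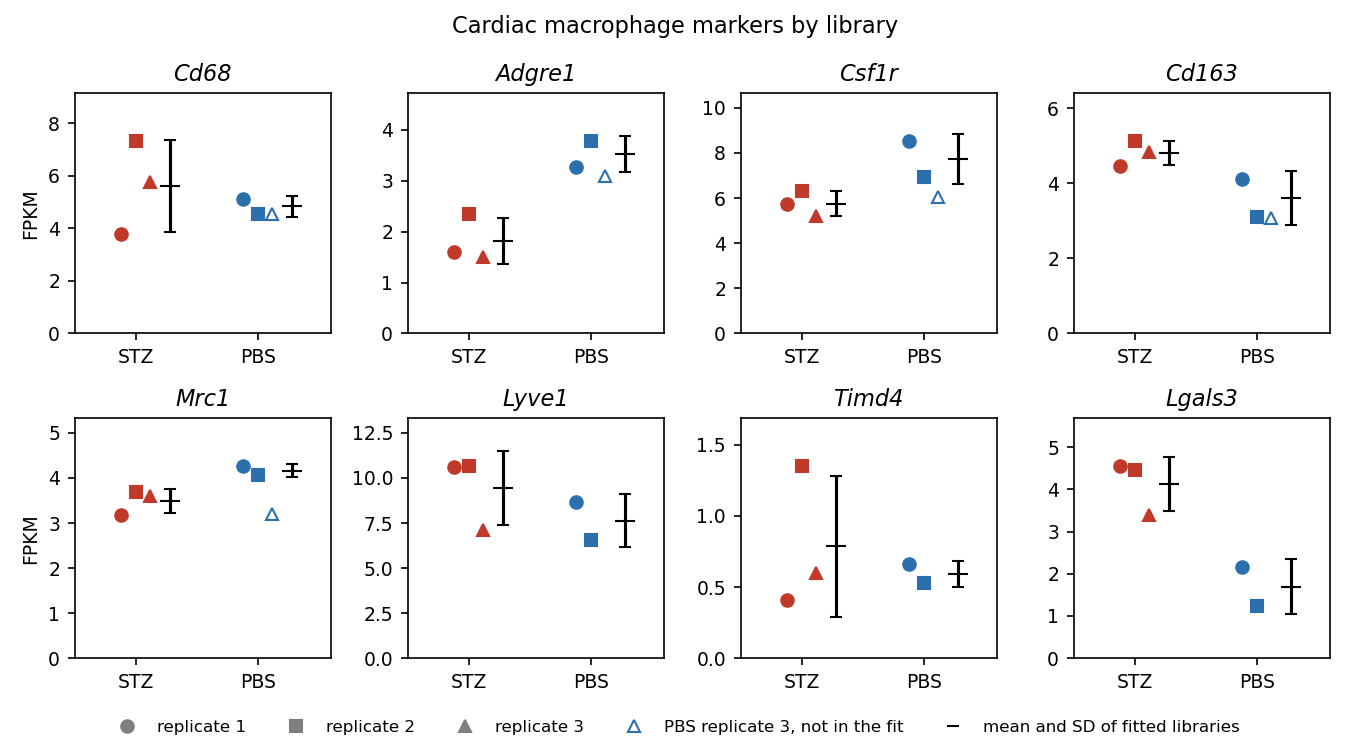
FPKM of each member (vertical axis, starting at 0) in every library, STZ left and PBS right, with the mean and SD of the fitted libraries as a black bar. The 3 STZ libraries sit above both PBS libraries for Lgals3 and below all 3 PBS libraries for Adgre1, while Cd68, Lyve1 and Timd4 overlap.

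Lgals3 (ENSMUSG00000050335, chromosome 14, 47367751 to 47386160, GRCm38) had 4.55, 4.45 and 3.40 FPKM in STZ replicates 1 to 3, against 2.15 and 1.23 FPKM in PBS replicates 1 and 2. All STZ libraries were above both PBS libraries. The means were 4.13 ± 0.637 FPKM in STZ (SD, n = 3) and 1.69 ± 0.651 FPKM in PBS (SD, n = 2). The log2 fold change of FPKM + 1 was 0.95 ± 0.19 (SE, limma adjusted p = 0.0461), a scale that understates the change of low genes. The call lies at the edge of the threshold. It was lost without any 1 of the 5 libraries, with adjusted p between 0.0626 and 0.24, and after centring each library on its median (limma adjusted p = 0.0558).

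Some markers of another myeloid cell were also higher in STZ hearts, though their order within groups was not that of Lgals3. S100a8 and S100a9 were lowest of their group in STZ replicate 1 and PBS replicate 1, where Lgals3 was highest. The neutrophil genes S100a8, S100a9 and Retnlg were the tested members of a list of 10 neutrophil markers, and all 3 passed. Retnlg reached 1 FPKM only in STZ libraries, so that it met the filter through the group in which it is high. S100a9, a calcium-binding protein of neutrophils and monocytes, had 21.98, 32.51 and 29.20 FPKM in STZ replicates 1 to 3, against 2.11 and 4.59 FPKM in PBS replicates 1 and 2. The list summed to between 42.3 and 62.84 FPKM in STZ libraries and to 3.64 and 8.3 FPKM in PBS libraries. The granule gene Mpo was at 0 in every library, and the defining surface marker Ly6g was at 0.10, 0.38 and 0 FPKM in STZ replicates 1 to 3 and at 0 in all 3 PBS libraries. Among the other untested markers of the list, Cxcr2, Ngp and Ltf were higher in STZ without overlap, and Csf3r and Camp overlapped. Cxcr2 had 0.72, 0.54 and 0.34 FPKM in STZ replicates 1 to 3, against 0.03, 0.16 and 0.13 FPKM in PBS replicates 1 to 3. Of the untested markers only Ngp reached 1 FPKM, in STZ replicate 2 (3.56 FPKM). The part of these cells in the Lgals3 value was not tested.

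Adgre1 (ENSMUSG00000004730, chromosome 17, 57358691 to 57483527) encodes F4/80, the adhesion receptor most often used to stain mouse macrophages. It had 1.6, 2.34 and 1.5 FPKM in STZ replicates 1 to 3, against 3.27, 3.77 and 3.10 FPKM in PBS replicates 1 to 3. Every STZ library was below every PBS library, the third included. The log2 fold change was -0.69 ± 0.17 (SE) with a 95% interval of -1.10 to -0.29, and it did not pass over all genes (limma adjusted p = 0.0668). With PBS replicate 3 added where its file lists a gene it passed (log2 fold change -0.65, limma adjusted p = 0.0338), in a fit where 10.1% of all genes passed. Centring each library on its median also brought it past the threshold (limma adjusted p = 0.0472).

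Csf1r (ENSMUSG00000024621, chromosome 18, 61100598 to 61132149), the receptor for the growth factors Csf1 and Il34 that keep macrophages alive, had 5.74, 6.31 and 5.21 FPKM in STZ replicates 1 to 3, against 8.51, 6.95 and 6.04 FPKM in PBS replicates 1 to 3. The STZ libraries were below PBS replicates 1 and 2, but PBS replicate 3 lay among them. The log2 fold change was -0.37 ± 0.14 (SE, limma adjusted p = 0.163) and -0.27 with PBS replicate 3 added (limma adjusted p = 0.24). Csf1r shares 15.1% of its exon bases with Hmgxb3 on the opposite strand, which had between 1.75 and 2.38 FPKM. The strand setting of the counting is not given in the sources used here.

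Cd68 (ENSMUSG00000018774, chromosome 11, 69664213 to 69666153), a glycoprotein of lysosomes and endosomes in phagocytes, had 3.78, 7.30 and 5.74 FPKM in STZ replicates 1 to 3, against 5.11, 4.55 and 4.54 FPKM in PBS replicates 1 to 3. The STZ libraries spread more widely and lay on both sides of the PBS libraries. Its log2 fold change was 0.15 with a 95% interval of -0.43 to 0.72 (limma adjusted p = 0.732), and -0.04 without STZ replicate 2.

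The scavenger receptors of the resident subset differed in sign. Cd163 (ENSMUSG00000008845, chromosome 6, 124304656 to 124330527), which takes up haemoglobin bound to haptoglobin, had 4.47, 5.11 and 4.82 FPKM in STZ replicates 1 to 3, against 4.11, 3.10 and 3.06 FPKM in PBS replicates 1 to 3. All 3 STZ libraries were above all 3 PBS libraries. The log2 fold change was 0.34 ± 0.14 (SE, limma adjusted p = 0.192), and 0.40 ± 0.12 with PBS replicate 3 added (limma adjusted p = 0.0826). Mrc1 (ENSMUSG00000026712, chromosome 2, 14229392 to 14332057), the mannose receptor CD206, had 3.18, 3.68 and 3.60 FPKM in STZ replicates 1 to 3, against 4.26, 4.06 and 3.19 FPKM in PBS replicates 1 to 3. The STZ libraries lay below PBS replicates 1 and 2 and around PBS replicate 3. Its log2 fold change was -0.20 with a 95% interval of -0.49 to 0.08 (limma adjusted p = 0.324).

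Lyve1 (ENSMUSG00000030787, chromosome 7, 110850607 to 110863239), a hyaluronan receptor of resident macrophages and of lymphatic endothelium, had 10.63, 10.65 and 7.09 FPKM in STZ replicates 1 to 3, against 8.66 and 6.58 FPKM in PBS replicates 1 and 2. STZ replicates 1 and 2 were above both PBS libraries and STZ replicate 3 lay between them. Its log2 fold change was 0.27 with a 95% interval of -0.24 to 0.78 (limma adjusted p = 0.454). Of 5 tested lymphatic markers 0 passed by limma and 1, Mmrn1 (log2 fold change 0.48), was higher at an unadjusted p under 0.05. The list of 7 summed to between 21.54 and 25.36 FPKM in STZ libraries and to 24.34 and 22.24 FPKM in PBS libraries. Prox1, the master regulator of lymphatic identity that cardiac muscle also expresses, had a log2 fold change of 0.01, and Flt4 had -0.13. The untested members Reln and Sema3d were below 0.5 FPKM in all 5 libraries and higher in STZ without overlap. Reln had 0.35, 0.47 and 0.28 FPKM in STZ replicates 1 to 3, against 0.15 and 0.20 FPKM in PBS replicates 1 and 2. The part of lymphatic vessels in the Lyve1 level was not tested.

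Timd4 (ENSMUSG00000055546, chromosome 11, 46810800 to 46844332), a receptor for phosphatidylserine on dying cells, had 0.41, 1.35 and 0.60 FPKM in STZ replicates 1 to 3, against 0.66 and 0.53 FPKM in PBS replicates 1 and 2. It reached 1 FPKM in only 1 library, STZ replicate 2, and was not tested.

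The order of the members by level differed between groups. In STZ hearts Lyve1 came first at 9.46 ± 2.05 FPKM, then Csf1r, Cd68, Cd163, Lgals3 and Mrc1, then Adgre1 at 1.81 ± 0.459 FPKM and Timd4 at 0.787 ± 0.497 FPKM (SD, n = 3). In PBS hearts Csf1r came first at 7.73 ± 1.10 FPKM, then Lyve1, Cd68, Mrc1, Cd163 and Adgre1, then Lgals3 at 1.69 FPKM and Timd4 at 0.595 ± 0.0919 FPKM (SD, n = 2). Neighbours from Csf1r to Mrc1 in the STZ order overlapped in their ranges. In the PBS order Csf1r overlapped with Lyve1, Mrc1 with Cd163, and Cd163 with Adgre1. Adgre1 was above Lgals3 in both PBS libraries and below it in all 3 STZ libraries.

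A ratio of a pair of members within a library does not depend on how that library was scaled. Adgre1 over Cd163 was 0.358, 0.458 and 0.311 in STZ replicates 1 to 3, against 0.796, 1.22 and 1.01 in PBS replicates 1 to 3. Lgals3 over Cd68 was 1.20, 0.610 and 0.592 in STZ replicates 1 to 3, against 0.421 and 0.270 in PBS replicates 1 and 2. Both ratios had groups that did not overlap, and these pairs were chosen after their values were seen. Adgre1 over each of the other 7 members was lower in STZ with groups apart, and Lgals3 over each of the other 7 was higher with groups apart. Over the 11486 other genes above 0 in all 5 libraries, the ratio of Adgre1 to the gene had groups apart for 84.0%, and that of Lgals3 for 79.5%. The counts over the members are thus close to those over all genes and are not read as particular to the markers.

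One STZ library stood higher than the others for most members. STZ replicate 2 had the highest STZ value for 7 of the 8 members, all but Lgals3, although for Lyve1 by only 0.02 FPKM. It was the highest STZ library for 13 of 21 tested genes of a broader macrophage list and for 40.0% of all tested genes. The haemoglobin genes and Alas2, markers of red blood cells, summed to 959 FPKM in STZ replicate 2, against 329 and 361 FPKM in STZ replicates 1 and 3 and 310.2 and 283 FPKM in PBS replicates 1 and 2. The part of blood content in the marker levels was not tested. Without STZ replicate 2, Adgre1 passed (log2 fold change -0.82, limma adjusted p = 0.0482) and Lgals3 did not (limma adjusted p = 0.0926).

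**Figure D2:**
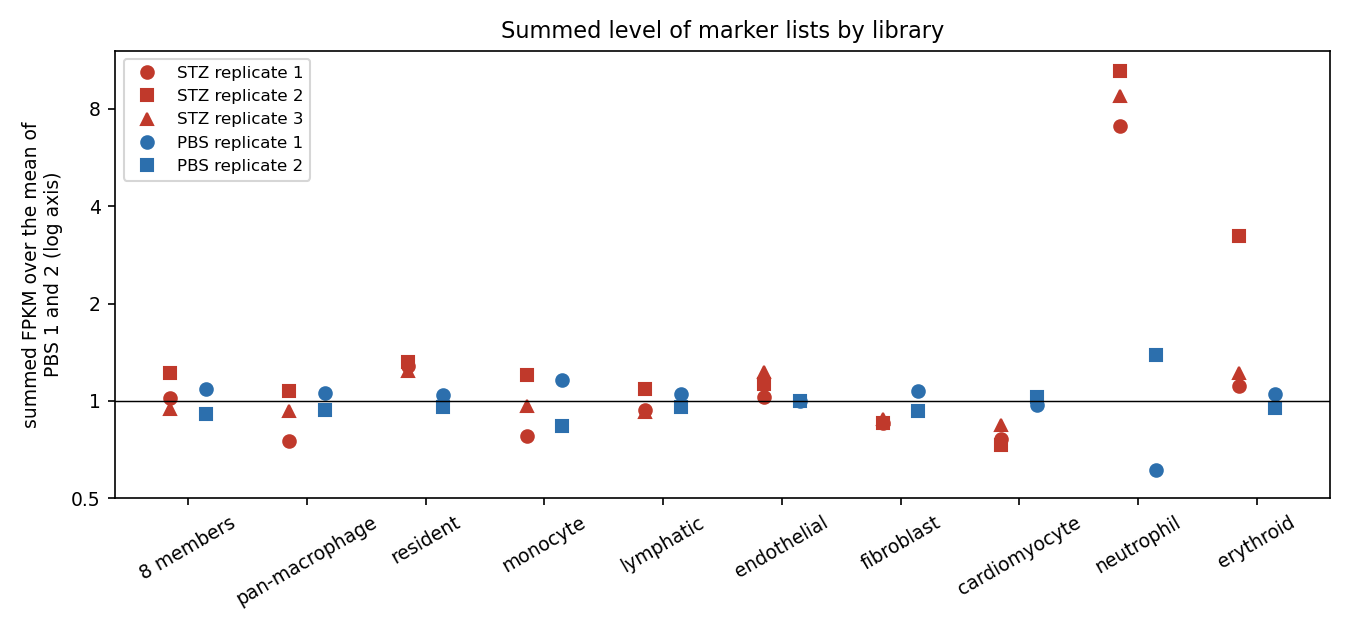
Summed FPKM of selected marker lists in each of the 5 complete libraries, divided by the mean of PBS replicates 1 and 2. The axis is logarithmic, with STZ left and PBS right in each column. The resident list, whose most abundant gene is Selenop, lies between 1.24 and 1.32 in STZ and at 1.04 and 0.958 in PBS. The 8 members lie between 0.947 and 1.22 in STZ and at 1.09 and 0.912 in PBS, while the neutrophil list lies between 7.09 and 10.5 in STZ and the erythroid list at 3.23 in STZ replicate 2.

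Promoter sequence was examined because macrophage genes are known to be driven by PU.1 (Spi1), an Ets family factor whose site has the core GAGGAA. RefSeq promoter windows (GRCm38.p6, 250 bases before to 50 after the start) were found for 5 of the 8 members. The core was searched on both strands, and 28.3% of 32851 windows of the same length held it. It occurred 2 times in the Cd68 window and 3 times in that of Mrc1, and was not found in those of Cd163, Timd4 and Lgals3. The Lgals3 window had 67.0% G and C and 18 CpG dinucleotides, that of Cd163 had 38.0% and 2, and the medians over all windows were 52.7% and 7. TATAAA, searched in the same way, was in none of the 5 windows and in 13.6% of all. The windows of the gene that rose, of one whose STZ values were all higher, and of a lysosomal marker whose groups overlapped are shown 5′ to 3′ on the gene's strand, with the core in capitals (TTCCTC on the opposite strand). They lie at chr14:47373610-47373909 (plus strand, within the GENCODE gene model of Lgals3), chr6:124304401-124304700 (plus strand) and chr11:69666121-69666420 (minus strand).
Lgals3: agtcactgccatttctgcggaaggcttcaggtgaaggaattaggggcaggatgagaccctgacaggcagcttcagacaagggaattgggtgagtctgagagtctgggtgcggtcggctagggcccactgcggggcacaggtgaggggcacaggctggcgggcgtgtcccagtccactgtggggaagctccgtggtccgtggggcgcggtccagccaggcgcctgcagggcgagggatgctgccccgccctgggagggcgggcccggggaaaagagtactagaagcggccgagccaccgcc
Cd163: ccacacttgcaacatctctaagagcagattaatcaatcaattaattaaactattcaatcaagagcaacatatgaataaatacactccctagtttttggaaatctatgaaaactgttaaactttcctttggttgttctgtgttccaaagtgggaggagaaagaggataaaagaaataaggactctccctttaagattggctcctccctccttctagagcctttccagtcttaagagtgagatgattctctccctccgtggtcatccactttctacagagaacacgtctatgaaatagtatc
Cd68: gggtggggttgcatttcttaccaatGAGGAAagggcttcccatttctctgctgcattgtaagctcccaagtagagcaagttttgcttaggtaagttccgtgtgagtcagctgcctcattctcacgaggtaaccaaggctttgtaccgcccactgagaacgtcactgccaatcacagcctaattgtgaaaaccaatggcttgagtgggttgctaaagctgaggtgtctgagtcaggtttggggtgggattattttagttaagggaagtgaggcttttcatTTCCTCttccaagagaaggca

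Beyond the 8 markers, a list of 25 genes expressed across macrophages was examined. Of 21 tested by limma 0 passed, and at an unadjusted p under 0.05 1 was higher and 1 was lower, a smaller share than over all genes. Their median log2 fold change was 0.01. The complement gene C1qa, made in the heart chiefly by macrophages, had 32.48, 43.41 and 46.99 FPKM in STZ replicates 1 to 3, against 45.59 and 41.18 FPKM in PBS replicates 1 and 2, and the groups overlapped. The lysozyme gene Lyz2 (log2 fold change -0.30) and the protease gene Ctss (0.01) also overlapped. The differences furthest from 0 were those of Mertk (0.62, limma adjusted p = 0.0887), a receptor for the engulfment of dying cells, Aif1 (-0.52, limma adjusted p = 0.0745), which encodes the marker Iba1, and Sirpa (0.50). Mertk had 2.81, 2.82 and 4.19 FPKM in STZ replicates 1 to 3, against 1.84, 1.65 and 1.63 FPKM in PBS replicates 1 to 3. Aif1 met the filter only through its PBS values. With PBS replicate 3 added, Mertk was higher (limma adjusted p = 0.0368) and Aif1 lower (limma adjusted p = 0.0474) past the threshold.

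Of 13 tested resident macrophage genes 1 rose, 0 fell, and the median was 0.02. At an unadjusted p under 0.05 by limma, 3 were higher and 3 lower, a larger share than over all genes. The lower ones were Folr2, Cbr2 (log2 fold change -0.41) and Pf4 (-0.47), and Pf4 overlapped once PBS replicate 3 was counted. The gene that rose was Selenop, a selenium carrier made by many cell types, with 138 ± 4.83 FPKM in STZ (SD, n = 3) and 90.7 ± 1.00 FPKM in PBS (SD, n = 2; limma adjusted p = 0.0368). The Selenop call was lost without STZ replicate 1, STZ replicate 2 or either PBS library (limma adjusted p between 0.0672 and 0.282). Selenop shares 15.4% of its exon bases with Ccdc152 on the opposite strand, which had between 0.18 and 1.0 FPKM in the 5 libraries. Among genes that did not pass, the complement receptor Vsig4 had a log2 fold change of 1.19 (limma adjusted p = 0.105) and the lectin Clec10a 0.99 (limma adjusted p = 0.059). Both reached 1 FPKM only in STZ libraries. Clec10a had 1.52, 2.84 and 3.05 FPKM in STZ replicates 1 to 3, against 0.67, 0.74 and 0.81 FPKM in PBS replicates 1 to 3, and it passed with PBS replicate 3 added (limma adjusted p = 0.0254). The folate receptor Folr2 had 3.21, 5.14 and 3.39 FPKM in STZ replicates 1 to 3, against 7.15 and 5.62 FPKM in PBS replicates 1 and 2, a log2 fold change of -0.60 that did not pass (limma adjusted p = 0.128). Of the Folr2 exon bases 63.1% overlap an antisense gene, which had between 0.23 and 0.49 FPKM.

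Of 5 tested genes of monocytes and recruited macrophages 0 passed by limma, and at an unadjusted p under 0.05 1 was higher and 1 lower. The chitinase-like gene Chil3 had 0.99, 3.05 and 1.19 FPKM in STZ replicates 1 to 3, against 0.10 and 0.03 FPKM in PBS replicates 1 and 2 (log2 fold change 1.29, limma adjusted p = 0.0695), and no PBS library brought it to the filter. Thbs1 had a log2 fold change of -0.75 and Nos2 -0.47. Of 8 tested genes linked to lipid-laden macrophages 1 rose, the endosomal tetraspanin Cd63, and the median was 0.26. At an unadjusted p under 0.05 by limma, 2 were higher and 2 lower, a larger share than over all genes. Cd63 averaged 41.4 ± 3.71 FPKM in STZ (SD, n = 3) and 24.1 ± 2.33 FPKM in PBS (SD, n = 2; log2 fold change 0.76, limma adjusted p = 0.0359), with 22.16 FPKM in PBS replicate 3. This call was lost without any 1 of the 5 libraries, with limma adjusted p between 0.05 and 0.269. Lgals1 (-0.59), Cd9 (0.57) and Ctsb (-0.48) did not pass.

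The ligands of Csf1r differed in sign. Csf1 had 6.05, 7.49 and 7.62 FPKM in STZ replicates 1 to 3, against 11.62, 8.52 and 6.76 FPKM in PBS replicates 1 to 3, so that the groups overlapped once the third PBS library was counted (log2 fold change -0.45, limma adjusted p = 0.162). Il34 had 2.26, 2.05 and 2.03 FPKM in STZ replicates 1 to 3, against 1.28 and 0.95 FPKM in PBS replicates 1 and 2, all STZ values being higher (log2 fold change 0.56, limma adjusted p = 0.0668). Of 6 tested growth factor and ligand genes 0 passed by limma, and at an unadjusted p under 0.05 1 was higher and 1 lower. The third largest difference was that of Cx3cl1 (-0.39), the membrane-bound chemokine read by Cx3cr1, and Csf2 and Csf3 were listed at 0 in all 5 libraries.

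**Figure D3:**
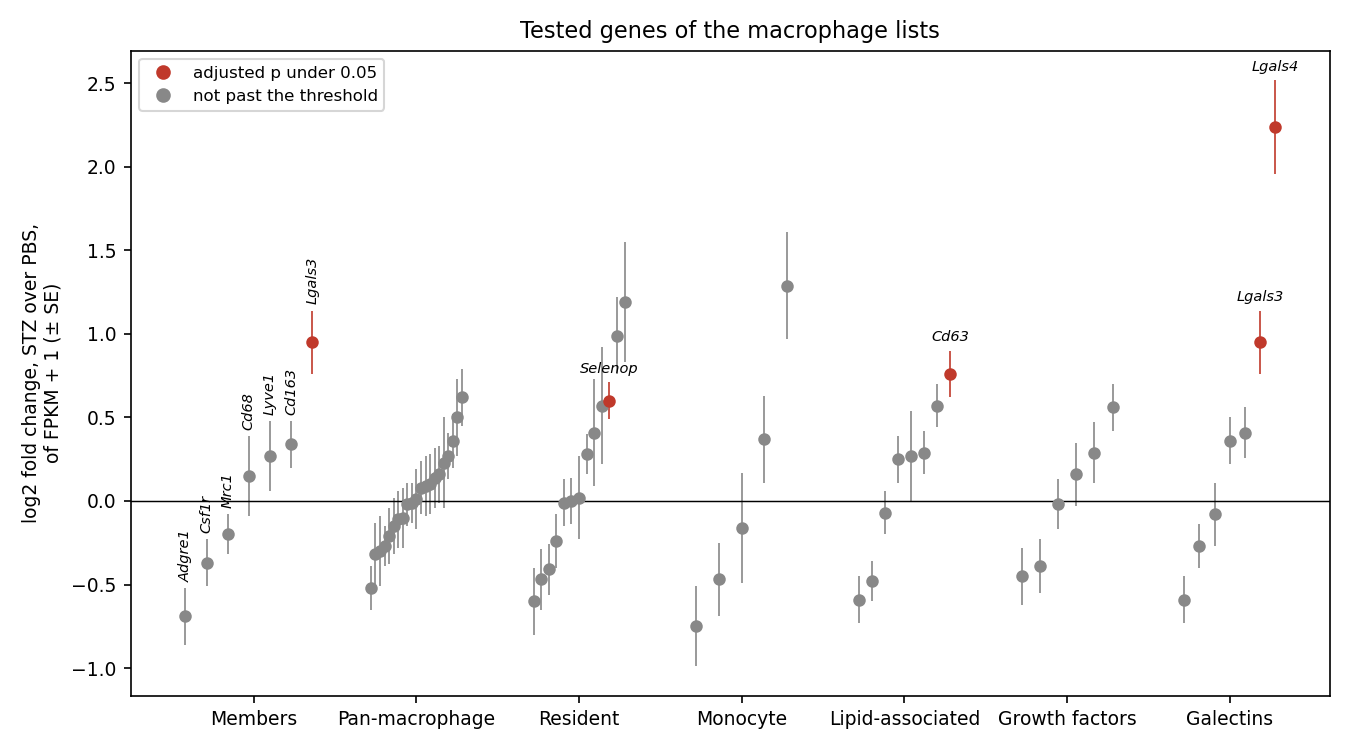
Log2 fold change of FPKM + 1, STZ over PBS, with its SE (vertical axis), for every tested gene of the 8 members and of 6 macrophage-related lists, sorted within each list. Red marks limma adjusted p under 0.05: Lgals3 among the members, Selenop, Cd63 and, in the galectin list, Lgals3 and Lgals4, while most other genes lie on both sides of 0.

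Lgals3 was not the only galectin to rise. Of 7 tested genes of the galectin list 2 rose, Lgals3 itself and Lgals4, and 0 fell, with a median of 0.36. The list also counts Lgals3bp (-0.08), which encodes a galectin-binding protein and not a galectin. At an unadjusted p under 0.05 by limma, 4 were higher and 1 lower, a larger share than over all genes. Lgals3, already described as a member, is among these 4, so the share is not separate from its own result. Lgals4, an epithelial galectin with tandem carbohydrate-binding domains, had 43.68, 56.63 and 77.20 FPKM in STZ replicates 1 to 3, against 9.18 and 14.11 FPKM in PBS replicates 1 and 2 (log2 fold change 2.24 ± 0.28, SE, limma adjusted p = 0.0152). All STZ values were higher, and the call was lost without PBS replicate 1 (limma adjusted p = 0.102) or PBS replicate 2 (0.0628). Lgals1, which encodes galectin-1, had 64.37, 67.91 and 81.58 FPKM in STZ replicates 1 to 3, against 104.04 and 111.06 FPKM in PBS replicates 1 and 2 (log2 fold change -0.59, limma adjusted p = 0.0668). Lgalsl (0.41) and Lgals8 (0.36) did not pass. Of 7 tested relatives of the other members, which included Lamp1, Adgre5 and Mrc2, 0 passed by limma, and 2, the receptor kinases Pdgfra (0.37) and Pdgfrb (0.41), had an unadjusted p under 0.05, both higher, a share near that of all genes. With PBS replicate 3 added Pdgfrb passed (limma adjusted p = 0.0452). Pdgfra then overlapped between groups, with a log2 fold change of 0.28 (limma unadjusted p = 0.0695).

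By likeness of profile over the 5 fitted libraries, the protein-coding genes nearest to Lgals3 were Tmem100, Cpne1 and Aldh1a1, with root mean square differences of 0.083, 0.087 and 0.087 on the log2 scale after each gene was centred. Tmem100 had 12.59, 12.14 and 9.72 FPKM in STZ replicates 1 to 3, against 5.63 and 4.06 FPKM in PBS replicates 1 and 2. Those nearest to Csf1r were Elp5, Tmcc2 and Erlin2, at 0.032, 0.034 and 0.036. None of these 6 genes is in a macrophage list used here.

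Markers of other cells of the heart were set beside these values. Of 8 tested fibroblast markers 0 rose and 4 fell, the collagen genes Col1a1, Col1a2 and Col3a1 and the matrix gene Postn. Other fibroblast markers lay the other way: at an unadjusted p under 0.05 the proteoglycan gene Dcn (0.38) and the receptor gene Pdgfra (0.37) were higher, and Tcf21 (0.25) was higher in every STZ library without reaching it. Once PBS replicate 3 was counted, Pdgfra overlapped between groups. The fibroblast list summed to between 100.32 and 102.84 FPKM in STZ libraries and to 124.73 and 109.36 FPKM in PBS libraries. Of 8 endothelial markers 0 passed by limma, with 3 higher and 0 lower at an unadjusted p under 0.05. These were Pecam1, Vwf and Egfl7, and with PBS replicate 3 added they passed as higher (limma adjusted p = 0.0391, 0.0188 and 0.0448). In that fit 10.1% of all genes tested passed. The other endothelial markers did not share this: Kdr (-0.17) was lower in every STZ library than in PBS replicates 1 and 2. Tek (-0.10), Tie1 (-0.11), Cdh5 (0.14) and Emcn (0.24) overlapped between groups. Of 6 cardiomyocyte markers 1, Actc1, fell and 0 rose, with 3 lower and 0 higher at an unadjusted p under 0.05. Tnnt2 (0.36) lay the other way, higher in every STZ library than in every PBS library. Tnni3 and Myl2 overlapped between groups. The cardiomyocyte list summed to between 8711 and 10096 FPKM in STZ libraries and to 11627 and 12264 FPKM in PBS libraries, without overlap. Of 4 tested atrial markers 0 passed by limma, with 1, Nppa, which stressed ventricular muscle also expresses, higher at an unadjusted p under 0.05. The atrial myosin light chain Myl7 had 357.43, 73.69 and 0.28 FPKM in STZ replicates 1 to 3, against 262.36, 37.86 and 0.21 FPKM in PBS replicates 1 to 3, so the atrial signal varied widely within both groups. Myl7 fell with replicate number in both groups, as did Myl4 and Sln in the libraries that list them. Of 5 erythroid genes 0 passed by limma at either the adjusted threshold or an unadjusted p under 0.05, and of 2 tested dendritic cell genes 0 passed and 1, Clec9a (0.46), was higher at an unadjusted p under 0.05. Clec9a reached 1 FPKM only in STZ libraries. T and NK cell, B cell and mast cell markers had no gene reaching the filter, and each of those lists summed to at most 3.16 FPKM in every library. The calls of Col1a2, Postn and Actc1 were lost without STZ replicate 2, STZ replicate 3 or either PBS library, and that of Col1a1 without PBS replicate 1, with limma adjusted p between 0.0555 and 0.259. The part of these cell types in the marker levels was not tested.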

How the data were processed

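The deposited values are FPKM per gene in 1 file per library, rounded to 2 decimals, per the file headers. Per the submitters' processing notes the tools were StringTie 1.3.4d, HISAT2 2.0.4 and cutadapt 1.9, and the build GRCm38. No source used here gives the annotation release or strand setting. Each FPKM is a share of its library, and mitochondrial genes took 42.0% to 45.5% of it in STZ and 47.3% and 47.1% in PBS libraries, so a change in abundant genes shifts all others.

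Identifiers were matched to GENCODE M21, and 55141 of 55401 had a symbol. The 11556 genes that reached 1 FPKM in 2 or more of the 5 libraries in the fit were compared on log2(FPKM + 1) by limma 3.58.1 in R 4.3.3 (eBayes with trend). Tests were two-sided, p-values were adjusted by the Benjamini-Hochberg method across the whole table, and the threshold was 0.05. A library listing under 50% of the genes stayed out of the fit. The fit was tested on simulated data, with noise drawn independently for each library and spreads taken from these data. Such a test cannot bear on effects that libraries share. Of the 672 genes called, 62.6% were higher, against 48.5% after median centring and 73.1% after rescaling to TPM. The members and the 18 companion lists were chosen with earlier results of these data known. Named list genes are those that passed and up to 3 others furthest from 0, with markers that check tissue or cell type and some values chosen after they were seen. Alternatives were other pseudocounts, filters, scalings and variance models, the replicate number as a block, and libraries left out or added.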

Additional observations from a re-analysis of the deposited data

How the results depend on the processing

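The count of genes called was 672. It was 81 with no filter on low values, 64 with the replicate number as a block (replicate block), 1171 with PBS replicate 3 added where listed, and between 24 and 398 with 1 fitted library left out. The count of members called was 1, and it was 0 with no filter, 0 with a filter at 5 FPKM (where Lgals3 and Adgre1 were not tested), 0 after rescaling without mitochondrial genes, 0 with the replicate block, 2 with PBS replicate 3 added, and 0 or 1 with 1 library left out. The 2 called with PBS replicate 3 added were Adgre1 and Lgals3, and Lgals3 has no value in that library. After median centring and without STZ replicate 2 the 1 member called was Adgre1 in place of Lgals3. The cause of these changes was not tested, except that leaving out a library or the filter changes the number of samples or of genes. The replicate numbers are in the titles alone. Same-numbered deviations correlated at 0.077 and -0.027 across genes. Those of PBS replicates 1 and 2 mirror each other, so these values cannot exclude pairing. The atrial genes Myl7, Myl4 and Sln fell with replicate number in both groups. Whether the replicate numbers pair the libraries was not settled, and the main fit does not pair them.

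Lgals3 was positive in all 14 alternatives that tested it, between 0.70 and 1.28, and lost its call in 9. Adgre1 was negative in its 14, between -0.94 and -0.61, and gained a call in 3. Cd163, Csf1r, Mrc1 and Lyve1 kept their sign and stayed short of the threshold in every alternative that tested them. Timd4 was tested only with no filter (0.13) and after rescaling to TPM (0.20), and did not pass. Cd68 lay between -0.04 (without STZ replicate 2) and 0.36 with 1 library left out. With PBS replicate 3 added, 2 of 22 tested pan-macrophage genes, 2 of 13 resident genes and 4 of 8 lipid-associated genes passed. In that fit 10.1% of all genes tested passed. Selenop, Cd9, Lgals1 and Lgals3 have no value in PBS replicate 3. Their p-values in that fit rest on the same 5 libraries and changed only through the fit over all genes. Without either PBS library, 0 genes of those lists and of the galectin list, Lgals3 included, passed. All members were low, at about 11 FPKM or less, and the depth behind them is unknown.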

Other observations

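Several macrophage and monocyte genes lay below the filter and were not tested. The values here were chosen after they were seen, and no explanation was tested. The fractalkine receptor Cx3cr1, which marks patrolling monocytes and some resident macrophages, had 0.14, 0.41 and 0.16 FPKM in STZ replicates 1 to 3, against 0.81 and 0.93 FPKM in PBS replicates 1 and 2. The chemokine Ccl24, made by resident macrophages, had 0.30, 0.34 and 0.17 FPKM in STZ replicates 1 to 3, against 1.10, 0.60 and 0.58 FPKM in PBS replicates 1 to 3. The cytokine Il1b had 0.14, 0 and 0.26 FPKM in STZ replicates 1 to 3, against 1.08, 0.38 and 0.34 FPKM in PBS replicates 1 to 3. In each of these genes the STZ libraries were lower without overlap.

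The opposite order held for other genes at such levels. Ccr2, the chemokine receptor of inflammatory monocytes, had 0.35, 0.49 and 0.49 FPKM in STZ replicates 1 to 3, against 0.22 and 0.25 FPKM in PBS replicates 1 and 2. Plac8, a gene of circulating monocytes, had 0.46, 0.49 and 0.47 FPKM in STZ replicates 1 to 3, against 0.08, 0.32 and 0.14 FPKM in PBS replicates 1 to 3. Gpnmb, a glycoprotein of lipid-laden macrophages, had 0.48, 0.73 and 0.33 FPKM in STZ replicates 1 to 3, against 0.19, 0.09 and 0.20 FPKM in PBS replicates 1 to 3. At these levels the counting error may be large, and it could not be computed from FPKM.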
